A study of Mus musculus with 2 samples.

Results

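The nuclear-encoded genes of the respiratory chain were followed through 2 long-read RNA libraries of mouse adrenal gland. Members were the protein-coding genes known to the annotation whose symbols start with Nduf, Uqcr, Atp5 or Cox with a digit from 4 to 8, together with Sdha, Sdhb, Sdhc, Sdhd, Cyc1 and Cycs. Of the 16745 annotated genes with at least 1 read, 93 gene models met this rule. The annotation holds 96 such models, and the other 3, Cox6a2, Cox7b2 and Cox8c, had no read. The rule goes by symbol, so it took in 8 assembly factors of complex I (Ndufaf1 to Ndufaf8), which are not subunits, and Atp5s, also called coupling factor B. It took Atp5o as a pair of gene models of that symbol, 1 with 395 and 13 reads in replicates 1 and 2 and 1 with 2 reads in each.

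Both libraries came from wild-type C57BL/6J mice, described in a free-text label as male, with the sex field not collected and the age unknown. They are numbered as biological replicates 1 and 2, have separate biosample entries and share 1 donor entry. No treatment, allele or time distinguished them, so every comparison below is between 2 libraries of 1 group. A p-value here measures only the counting error of these libraries, and their difference may be technical. Long-read RNA sequencing reads a cDNA copy of a transcript as 1 molecule, so counts were not divided by transcript length. They are not free of length, since among genes outside the set the difference between the libraries went with it, as given below.

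The respiratory chain passes electrons from NADH and succinate through complexes I to IV of the inner mitochondrial membrane to oxygen, and complex V uses the resulting proton gradient to make ATP. Most of its subunits are encoded in the nucleus and a small core in mitochondrial DNA. In the adrenal cortex the mitochondria also carry out steps of steroid synthesis. Complex I oxidises NADH, complex II oxidises succinate, complex III passes electrons to cytochrome c, and complex IV reduces oxygen.

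Replicate 1 held 848782 reads and replicate 2 held 545229. Levels are given in counts scaled to 1000000 reads in the library (CPM), and a single read was worth 1.18 CPM in replicate 1 and 1.83 CPM in replicate 2. Defining genes of the adrenal cortex and of chromaffin cells were all read, 5 of 5 in each list, at a summed 55635 and 81170 CPM for the cortex and 10093 and 23122 CPM for chromaffin cells. The sums do not hold gene by gene. In the cortex 4 were higher in replicate 2 and Hsd3b1 lower (11679 and 4561 CPM). Of the chromaffin genes 3 were higher, and Th (2831 and 1489 CPM) and Pnmt (694 and 160) were lower. Among markers of other tissues rich in mitochondria, all 8 of skeletal muscle and all 4 of sperm and testis had 0 reads. Those of heart had 2 reads in replicate 1 and 0 in replicate 2, and those of brown fat had 8 and 0. White fat markers, 3 of 4 detected, had 171 and 23 reads (201 and 42.2 CPM). They were lower in replicate 2 like most members, and their part in the results was not tested.

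The respiratory genes took a larger share of reads in replicate 1. They held 30421 reads there, 3.58% of the library (95% exact binomial interval 3.54 to 3.62), and 5575 reads in replicate 2, 1.02% (0.996 to 1.05), a mean of 2.30% ± 1.81 (SD, n = 2). Intervals cover counting error only. The shares differed 3.51-fold, with intervals far apart. The makeup of that share differed too. The genes of 4 members, Sdha, Ndufs1, Atp5a1 and Atp5b, made up 8.32% of member reads in replicate 1 and 73.1% in replicate 2. Without those 4, the members made up 3.29% of replicate 1 and 0.275% of replicate 2, a 12.0-fold difference. These 4 were picked out by their values.

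Gene by gene, 84 of the 90 members whose reads in both libraries together came to 10 or more were lower in replicate 2, 4 were higher and 2 did not pass. The test was Fisher's exact test on the reads of each gene, with p-values adjusted over 9879 genes by Benjamini-Hochberg and called under 0.05. Over all genes tested, 64.4% were called, 36.6% as higher and 27.9% as lower. The log2 ratio of replicate 2 over replicate 1, taken after adding 1 CPM, had a median of -3.99 over the tested members and 0.38 over all genes tested. The members untested for lack of reads were Cox4i2, Atp5s and the scarcer Atp5o model.

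**Figure D1:**
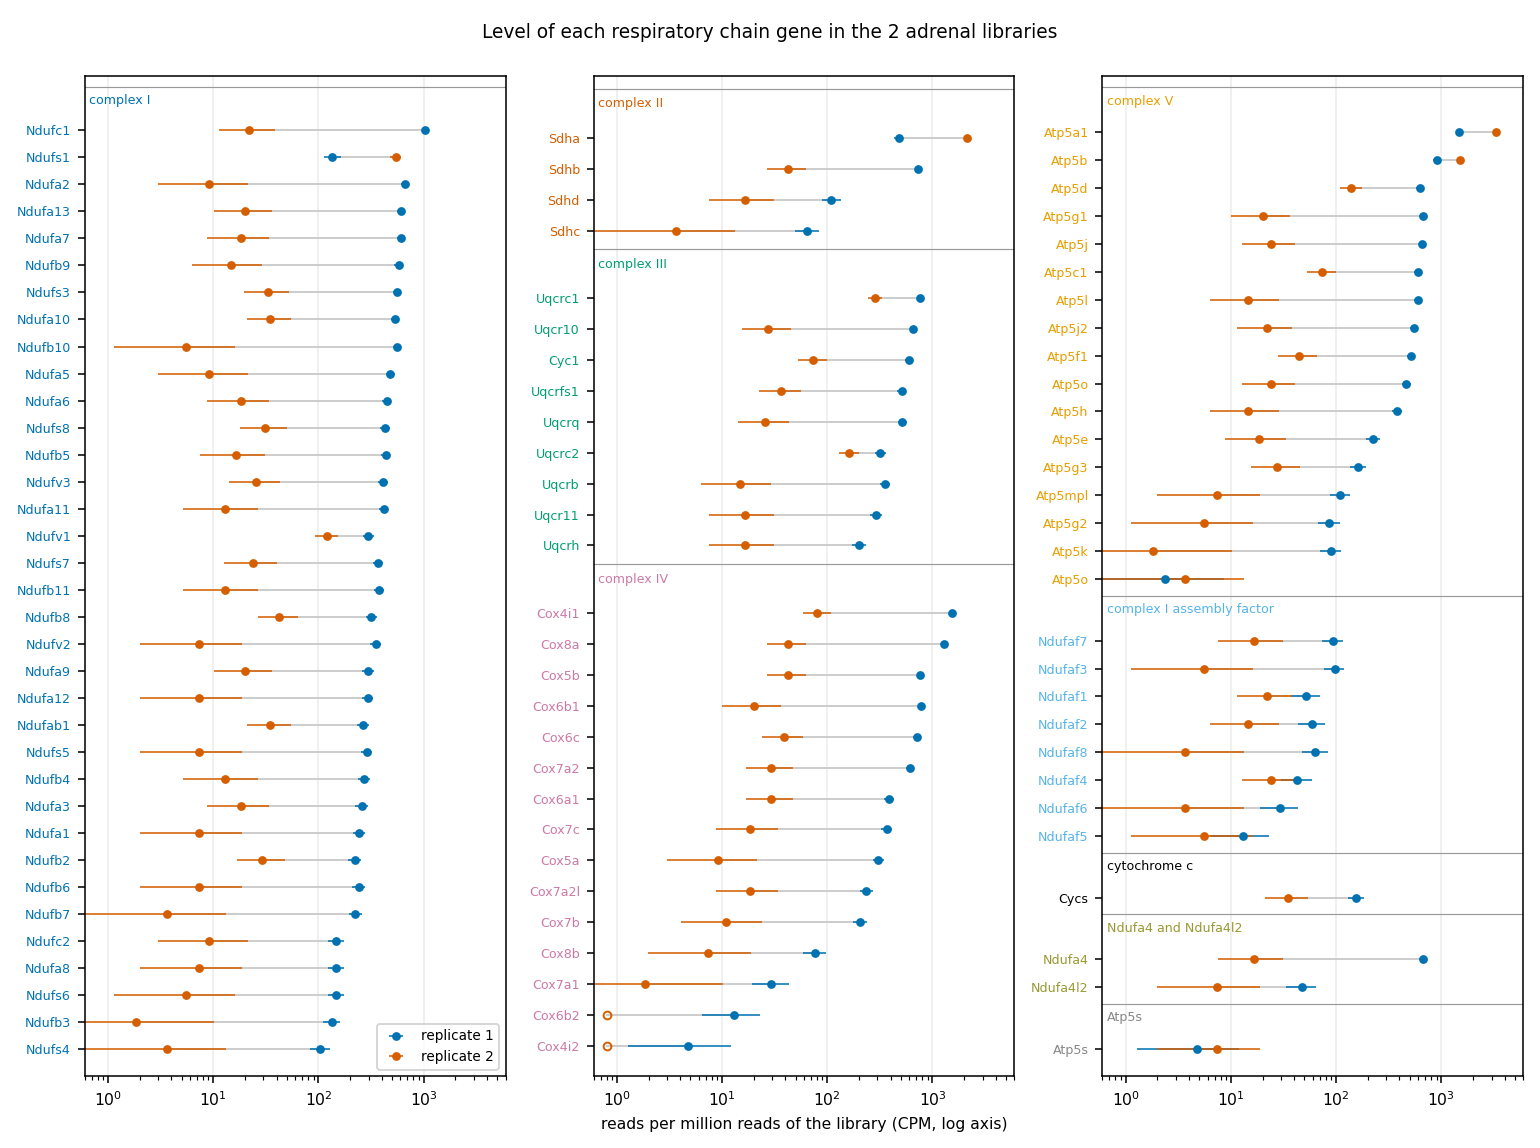
Level of 92 of the 93 member gene models in replicate 1 (blue) and replicate 2 (orange), in CPM on a log axis, grouped by complex and ordered by mean level. Points carry 95% exact Poisson intervals, open circles stand for 0 reads and are drawn at the left edge, intervals that reach past the left edge are clipped there, and Sdha, Ndufs1, Atp5a1 and Atp5b are the members called higher in replicate 2.

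**Figure D2:**
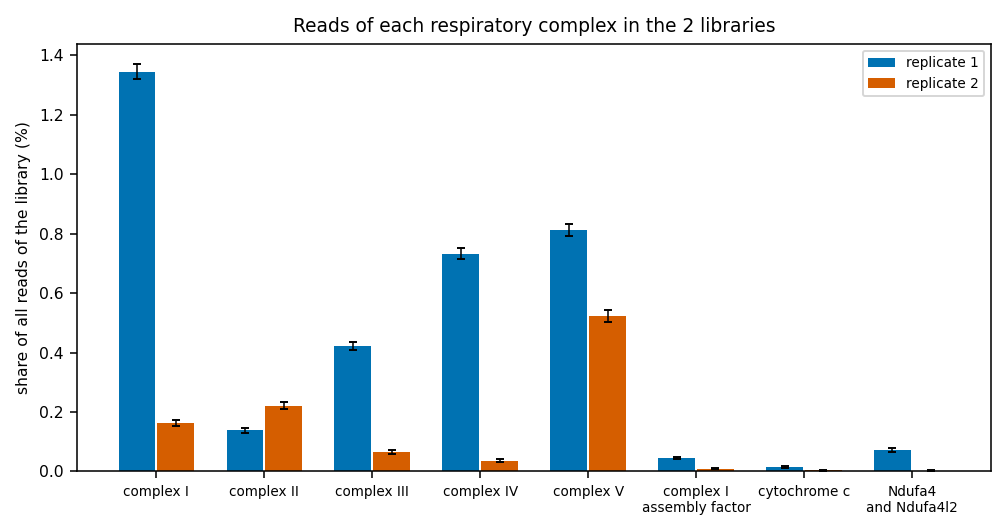
Share of all reads of each library (percent, y axis) on the genes of each complex, with 95% exact binomial intervals. Complex II stands higher in replicate 2 (0.138% against 0.221%), and the other groups drawn stand lower there.

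Complex I, which oxidises NADH, was represented by 36 genes, all read in both libraries. Together they took 1.35% and 0.162% of reads in replicates 1 and 2, and 35 were lower and 1 higher in replicate 2. The single higher gene was Ndufs1 (chromosome 1, 63143596 to 63176833), the largest core subunit, which carries iron-sulfur clusters. It had 115 reads (135 CPM) in replicate 1 and 295 (541 CPM) in replicate 2, 3.99-fold more (adjusted p = 6.32e-40). Ndufv1, which binds NADH and the flavin, stood at 298 and 121 CPM.

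The lowest ratios of all members were also in complex I. Ndufb10 (chromosome 17, 24722060 to 24724478), an accessory subunit of the membrane arm, had 473 reads (557 CPM) in replicate 1 and 3 (5.50 CPM) in replicate 2. The ratio of rates was 101, with a 95% exact interval of 34.4 to 493 that counting alone gives. Ndufa2, an accessory subunit of the peripheral arm, had 559 and 5 reads, a 71.8-fold difference (log2 ratio -6.02). Ndufb7, another membrane-arm subunit, had 190 and 2 reads, a ratio of 61.0 (16.7 to 508). Ndufb3 had 113 and 1 (ratio 72.6, interval 12.8 to 2892). The member of highest level in replicate 1 within the complex, Ndufc1, fell from 883 reads (1040 CPM) to 12 (22.0 CPM). Among core subunits, Ndufs3 stood at 555 and 33.0 CPM, Ndufs7 at 371 and 23.8, Ndufs8 at 429 and 31.2, and Ndufv2 at 350 and 7.34. All of these passed the test as lower, and the spread within the complex ran from a log2 ratio of -6.42 to 1.99.

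The 8 assembly factors, which help to build complex I and leave the finished enzyme, were scarcer. Their sum was 0.0449% and 0.00954% of reads. Of the 8, 6 were lower and 2 were not called: Ndufaf4 with 36 and 13 reads (adjusted p = 0.112) and Ndufaf5 with 11 and 3 (adjusted p = 0.338). Ndufaf4 passed as lower under TMM or DESeq2 scaling. Their median log2 ratio was -2.18, against -4.52 for the complex I subunits. The highest were Ndufaf7 at 93.1 and 16.5 CPM and Ndufaf3 at 96.6 and 5.50 CPM.

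Complex II, the succinate dehydrogenase shared with the citric acid cycle, split. Sdha (chromosome 13, 74322254 to 74350280), the flavoprotein subunit that oxidises succinate, had 406 reads (478 CPM) in replicate 1 and 1173 (2151 CPM) in replicate 2. It was 4.50-fold higher in replicate 2, the largest rise of any member (log2 ratio 2.17, adjusted p = 6.21e-175). Its 3 partners were lower. The iron-sulfur subunit Sdhb had 621 and 23 reads, a 17.3-fold difference. The membrane anchors Sdhc and Sdhd had 55 and 2 reads and 93 and 9 reads. In replicate 1 Sdhb was above Sdha, at 732 against 478 CPM, and in replicate 2 far below it, at 42.2 against 2151 CPM.

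Complex III, which passes electrons from quinol to cytochrome c, held 9 genes, all lower in replicate 2. Its sum was 0.422% and 0.0657% of reads. The 2 core proteins differed least: Uqcrc1 had 652 and 155 reads (768 and 284 CPM) and Uqcrc2 had 272 and 88 (320 and 161 CPM). Uqcrc2 was 1.99-fold lower and Uqcrc1 2.70-fold lower. The redox subunits were further apart, with cytochrome c1, Cyc1, at 604 and 73.4 CPM, and the Rieske iron-sulfur protein, Uqcrfs1, at 510 and 36.7 CPM. The small subunits Uqcr10 (660 and 27.5 CPM), Uqcrq (516 and 25.7), Uqcrb (353 and 14.7), Uqcr11 (290 and 16.5) and Uqcrh (201 and 16.5) were lower by 12.2-fold (Uqcrh) to 24.1-fold (Uqcrb). Cycs, the soluble cytochrome c that links complexes III and IV, had 131 and 19 reads (154 and 34.8 CPM), 4.43-fold lower (adjusted p = 8.17e-12).

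Complex IV, the oxidase, took 0.732% of reads in replicate 1 and 0.0348% in replicate 2. This 21-fold difference in summed share was the largest of the 5 complexes, while the median log2 ratio was lower in complex I (-4.52 against -4.16). All 14 tested genes of complex IV were lower, with log2 ratios between -5.20 and -3.22. They include Cox8b, whose 360-base transcript is the shortest of the set. Cox4i1 (chromosome 8, 120668222 to 120674207), the largest nuclear-encoded subunit, had 1304 reads (1536 CPM) in replicate 1, the most of any member there, and 44 (80.7 CPM) in replicate 2. Cox8a, a small subunit in the membrane, had 1103 and 23 reads (1300 and 42.2 CPM). Cox5b stood at 763 and 42.2 CPM, Cox6c at 709 and 38.5, and Cox5a at 305 and 9.17.

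Several subunits of complex IV exist in a ubiquitous form and a tissue-restricted form encoded by separate genes. Most adrenal reads of each set came from the ubiquitous form, 94.4% or more in replicate 1. In replicate 2 it was 85.2% or more, in sets of only 11 to 44 reads. Cox4i1 took 1304 of 1308 reads of its pair in replicate 1 and 44 of 44 in replicate 2, Cox4i2 having 4 and 0 (upper limit of its share in replicate 2, 8.04%). Cox6a1 took all 328 and 16 reads of its pair, and the muscle form Cox6a2 had 0 in each library. Cox6b1 took 98.4% and 100% of its pair, and Cox6b2, best known from testis, had 11 reads and 0. The lower call of Cox6b2 (adjusted p = 0.00892) is a difference of at least 2.36-fold when 3 counts stand in for its 0. Cox7a2 took 95.4% and 94.1% of the reads it shares with the muscle and heart form Cox7a1, which had 25 reads and 1. Cox8a took 94.4% and 85.2% of its set, with Cox8b, a form of muscle and brown fat, at 65 and 4 reads and Cox8c at 0. In none of these pairs did the 2 libraries' intervals for the share separate. All 8 skeletal muscle markers and 3 of 4 brown fat markers were at 0 reads, while Cox7a1 and Cox8b were read. The remaining brown fat marker, Cidea, had 8 reads and 0, and the white fat markers had 171 and 23. Which cells the Cox7a1 and Cox8b reads came from was not tested.

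Ndufa4, first described with complex I and now placed with complex IV, had 572 and 9 reads (674 and 16.5 CPM), and its relative Ndufa4l2 had 40 and 4. Both were lower in replicate 2. Ndufa4l2 made up 6.54% of the pair in replicate 1 (4.71 to 8.79) and 30.8% in replicate 2 (9.09 to 61.4), where only 13 reads were counted.

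Complex V held 17 gene models, with 2 higher, 14 lower and 1 untested, and took 0.812% and 0.523% of reads. The higher pair were the large subunits of the catalytic F1 part. Atp5a1, the alpha subunit, had 1243 reads (1464 CPM) and 1788 (3279 CPM), a mean of 2372 ± 1283 CPM (SD, n = 2), the highest of all members. It was 2.24-fold higher in replicate 2 (adjusted p = 2.95e-106). Atp5b (chromosome 10, 128083273 to 128090391), the catalytic beta subunit, had 768 and 821 reads (905 and 1506 CPM), 1.66-fold higher (adjusted p = 4.95e-23). The 3 other F1 subunits went the other way: gamma, Atp5c1, at 603 and 73.4 CPM, delta, Atp5d, at 629 and 139 CPM, and epsilon, Atp5e, at 225 and 18.3 CPM. Alpha and beta are present in equal numbers in the enzyme, and their CPM stood at 1464 and 905 in replicate 1 and 3279 and 1506 in replicate 2. The stalk and membrane subunits Atp5f1, Atp5h, Atp5j, Atp5j2, Atp5k, Atp5l, Atp5mpl and Atp5o were lower by 11.7-fold (Atp5f1) to 48.8-fold (Atp5k, 76 reads and 1, interval 8.50 to 1953).

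The membrane ring of complex V is built from subunit c, which 3 genes encode as the same mature protein behind different import sequences. Over the 225 coding bases of the mature part, Atp5g1 and Atp5g2 differed at 34 bases, Atp5g1 and Atp5g3 at 45, and Atp5g2 and Atp5g3 at 48. A stretch of 90 of these bases, from base 130 to base 219, shows how far the copies can be told apart in a read; capitals mark the 26 positions at which the 3 genes are not all alike.
Atp5g1: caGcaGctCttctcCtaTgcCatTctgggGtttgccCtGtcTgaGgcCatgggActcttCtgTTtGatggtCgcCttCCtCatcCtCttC
Atp5g2: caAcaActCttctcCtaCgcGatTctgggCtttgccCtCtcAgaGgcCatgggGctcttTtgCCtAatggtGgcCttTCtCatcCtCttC
Atp5g3: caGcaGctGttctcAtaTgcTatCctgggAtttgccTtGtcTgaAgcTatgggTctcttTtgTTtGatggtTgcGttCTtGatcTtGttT
In replicate 1 Atp5g1 had 571 reads, Atp5g2 73 and Atp5g3 138, so Atp5g1 supplied 73.0% of subunit c reads (95% interval 69.8 to 76.1). In replicate 2 the reads were 11, 3 and 15, and Atp5g1 supplied 37.9% (20.7 to 57.7). The share of Atp5g3 was 17.6% (15 to 20.5) in replicate 1 and 51.7% (32.5 to 70.6) in replicate 2. The intervals of both shares do not overlap between the libraries, and all 3 genes were lower in replicate 2 on the scale of total reads. A 2-exon model lacking part of the transcript held 2 of 138 Atp5g3 reads in replicate 1 and 9 of 15 in replicate 2. On annotated models alone, Atp5g1, Atp5g2 and Atp5g3 had 557, 64 and 107 reads in replicate 1 and 7, 1 and 5 in replicate 2. Whether the shares differ on those counts was not tested.

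Member transcripts are short, and under 3000 bases the direction of the difference went with transcript length. The length of a gene was taken as that of its most read annotated model, or of its most read model where no annotated one had a read. It had a median of 809 bases over the members, against 2382 for the other protein-coding genes with reads, and 60.2% of members against 12.8% of those genes were under 1000 bases. The coding parts had medians of 438 and 1390.5 bases. All 54 tested members under 1000 bases were lower, 9 of 9 under 500 bases and 45 of 45 from 500 to under 1000. Of the 218 other genes under 500 bases, 58.7% were lower and 10.1% higher, with a median log2 ratio of -2.42 against -3.94 for the members. Other genes of 500 to under 1000 bases were lower in 69.2% of cases and higher in 5.76%, with a median log2 ratio of -2.87 against -4.50 for the members. These classes hold all genes with at least 10 reads, so other genes and members can differ in read depth. Over genes with at least 100 reads, members included, the running median was -3.94 at 419 bases and -3.88 at 875 bases. From 2000 to under 3000 bases 3 of 4 members were higher, and 50.9% of the 2584 other genes of that class. The members of 3000 bases or more went against this. Of the 5 in that class none was higher and 4 were lower (Ndufb2, Sdhc, Cycs and Atp5g1), with a median log2 ratio of -2.87, while 55.2% of the 3633 other genes of that class were higher and 8.18% lower. The 4 higher members had transcripts of 1916 (Atp5b), 2471 (Atp5a1), 2661 (Ndufs1) and 2900 bases (Sdha).

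**Figure D3:**
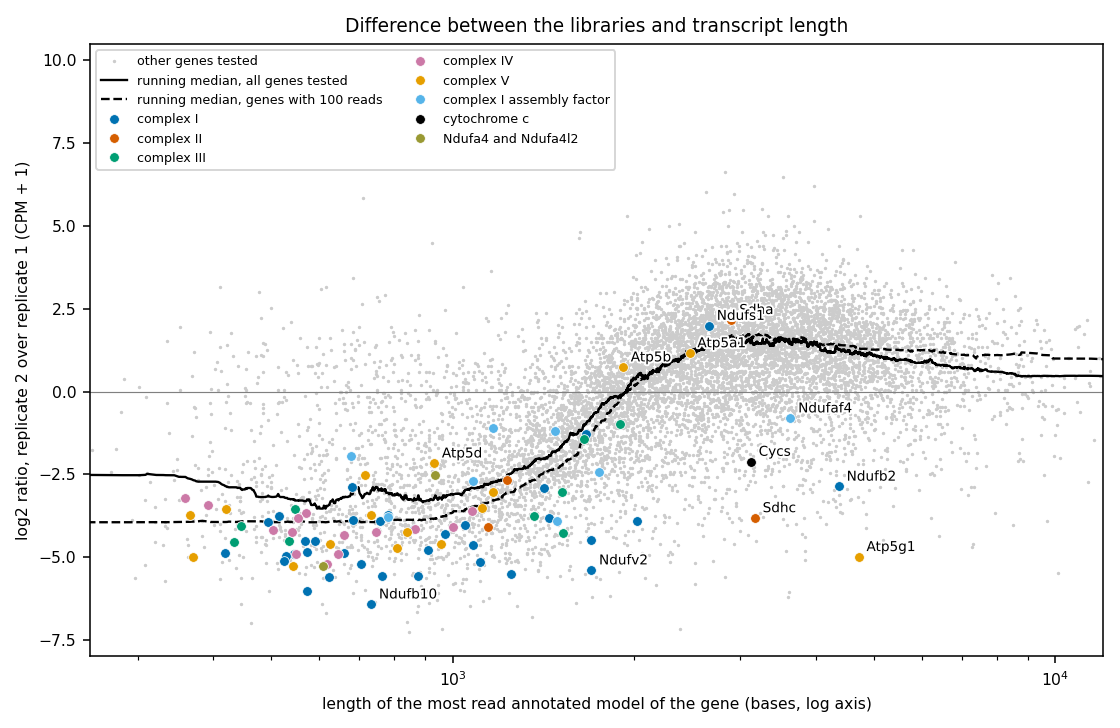
Log2 ratio of replicate 2 over replicate 1 (y axis) against the length of the most read annotated model (bases, log axis) for 89 of the 90 tested members, coloured by complex, and all other tested genes in grey. The black lines are running medians over 301 genes, solid for all genes tested and dashed for genes with at least 100 reads. Most members under 1000 bases lie below the solid line, while Sdha and Ndufs1 lie above it. At 545 bases the solid line stands at -3.26 and the dashed line at -3.92.

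A running median of the log2 ratio along transcript length was therefore subtracted and the genes were tested again with an exact binomial test. This left 5 members higher, 55 lower and 30 not called, with 20.6% of all genes higher and 20.9% lower. The median of the members moved from -3.99 to -1.15. A trend taken only from genes with at least 100 reads, a choice made after the values were seen, left 8 members higher, 29 lower and 53 not called (22.2% and 19.5% of all genes), with a median of -0.55. On both scales the members below the trend outnumbered those above it, and the size of the excess depended on how the trend was drawn.

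Among the members above the trend on both scales were Atp5d, Atp5b, Sdha and Ndufs1. Atp5d stood 1.04 above it in log2 units on all genes (534 and 76 reads, adjusted p = 7.10e-07), Atp5b 0.82, Sdha 0.70 and Ndufs1 0.56. The length used for Atp5d was the 931 bases of Atp5d-201, which held 390 and 27 of its reads. Models of 3008 and 3383 bases that lack part of a transcript held 5 and 5 in replicate 1 and 16 and 12 in replicate 2. How far this moves Atp5d against the trend was not tested. Atp5a1 lay on the trend (-0.02). With the trend of well-read genes, Ndufb8, Ndufaf2 and Atp5g3 joined them. The length used for Ndufb8 was 680 bases, of a form with 232 and 1 reads, while its 2142-base form had 22 and 16. For Atp5g3 it was 714 bases, while 9 of its 15 reads in replicate 2 were on a 396-base incomplete model. A trend drawn along coding length in place of transcript length gave another list, also added after the values were seen: Sdha, Ndufs1 and Cycs stood above it, and Atp5b was then lower (-0.27). Of the 9486 genes tested that way, 24.9% were called above that trend and 22.8% below.

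The 3 members furthest below the trend had annotated models with 953 noncoding bases (Ndufv2) or more. The log2 ratio minus the trend of all genes was -6.18 for Atp5g1, -5.24 for Sdhc and -4.61 for Ndufv2. Of the 8 members whose most read annotated model has at least 1000 noncoding bases, all 8 were lower than the trend of well-read genes, with a median of -3.51: Atp5g1, Sdhc, Ndufb2, Cycs, Ndufs4, Ndufc1, Ndufaf4 and Uqcrq. Among the 61 members with under 500 noncoding bases 12 were lower, 7 higher and 42 not called, with a median of -0.31. Noncoding bases are part of the length that sets the trend, so the 2 axes are not independent, and the classes were drawn after the values were seen. The length is that of the annotated model, which a read matches by its splice junctions and not by its ends.

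**Figure D4:**
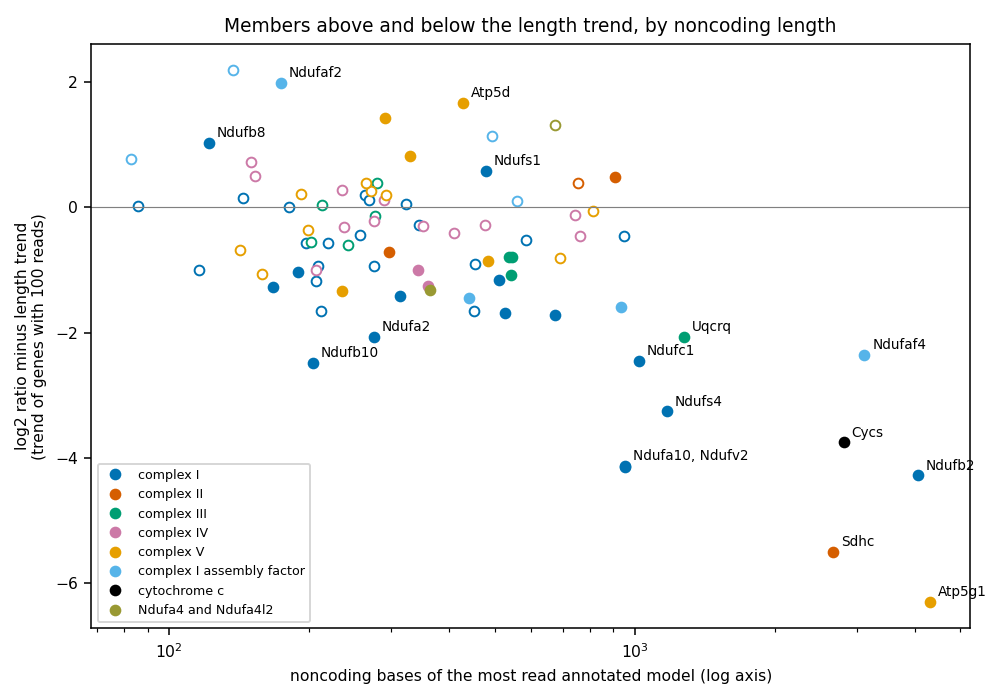
Log2 ratio minus the length trend of genes with at least 100 reads (y axis) against the noncoding bases of the most read annotated model (log axis) for tested members with such a model, coloured by complex. Filled points were called above or below the trend and open points were not; the 8 members at 1000 bases or more all lie below -2.

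Transcript forms could be compared for few members, since most had under 20 reads in replicate 2. The most used form of a gene was set against its other forms in Fisher's exact test, over the known models and the unannotated ones with a full set of junctions. The unannotated ones are NIC, which join annotated splice sites in a new combination, and NNC, which use a splice site that is not annotated. Where both libraries had 20 or more such reads, 2 of 15 members differed, against 9.55% of the 2251 genes tested, and the count was also 2 of 15 on annotated models alone (7.35% of 1918 genes). Cox4i1-201, the coding form, took 92.5% of reads in replicate 1 (1188 of 1284) and 69.8% in replicate 2 (30 of 43). Cox4i1-204, a short form annotated as retaining an intron, took 5.14% (66 reads) and 25.6% (11 reads). Cyc1-201 took 94.6% (477 of 504) and 69.4% (25 of 36), while Cyc1-204, which keeps the 609-base first intron (chromosome 15, 76343693 to 76344301), took 3.37% (17 reads) and 25% (9 reads). The adjusted p was 0.000516 for Cox4i1 and 0.000275 for Cyc1. Among those not called were Sdha (96.7% and 96.7% on the leading form), Atp5a1 (99.4% and 99.2%) and Atp5b (97.9% and 97%), whose read numbers allow narrow intervals.

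With the minimum lowered to 10 reads, 10 of 35 members differed, against 7.70% of 3755 genes. With 50 reads, 0 of 8 did (13.1% of 868 genes), and Cox4i1 and Cyc1 were then no longer tested. The largest differences were in 3 complex I genes, Ndufb8, Ndufab1 and Ndufv3, whose longer form had the larger share in replicate 2. Ndufb8, a membrane-arm subunit, has a 680-base form and a 2142-base form, Ndufb8-209, with another last exon (chromosome 19, 44548572 to 44550220). The longer form took 22 of 262 reads (8.40%) in replicate 1 and 16 of 19 (84.2%) in replicate 2, and the leading form 88.5% and 5.26% (adjusted p = 1.74e-12). Ndufab1, the mitochondrial acyl carrier protein, has forms of 1416 and 3479 bases with separate last exons, and the longer took 29 of 226 reads (12.8%) and 11 of 16 (68.8%). The other members called at this minimum were Atp5j2, Atp5o, Cox7a2, Ndufs3 and Ndufs7, each with a smaller share of its leading form in replicate 2.

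Ndufv3, an accessory subunit of the flavin-bearing part of complex I, has a cassette exon of 1092 bases, all coding (chromosome 17, 31527310 to 31528401). The junctions are shown because a read through either tells the short from the long protein form. The lower-case bases end the exon before the splice and the capitals begin the exon after it, the last exon in Ndufv3-202 and the cassette in Ndufv3-201.
Ndufv3-202: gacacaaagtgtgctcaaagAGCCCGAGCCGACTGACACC
Ndufv3-201: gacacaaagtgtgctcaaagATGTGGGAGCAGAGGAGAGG
The short form Ndufv3-202 took 285 of 342 reads in replicate 1 (83.3%) and 3 of 14 in replicate 2 (21.4%). The long form Ndufv3-201 took 50 (14.6%, 11 to 18.8) and 8 (57.1%, 28.9 to 82.3). Both forms had fewer reads in replicate 2.

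The gamma subunit gene Atp5c1 carries a cassette exon of 37 bases (chromosome 2, 10056770 to 10056806) at its 3′ end, of which 4 are coding, so that the choice sets the end of the coding part. Shown are the last 20 bases before the splice in lower case and, in capitals, the coding bases that follow to the stop codon, with the exon (Atp5c1-203) and without it (Atp5c1-201).
Atp5c1-203: atctctggggctgctgctctGGATTAA
Atp5c1-201: atctctggggctgctgctctGTAA
Atp5c1-203 took 459 of 500 reads (91.8%, 89.0 to 94.1) in replicate 1 and 29 of 34 (85.3%, 68.9 to 95) in replicate 2. Its intervals overlapped and it was not called (adjusted p = 0.590), so the form that includes the exon led in both adrenal libraries.

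**Figure D5:**
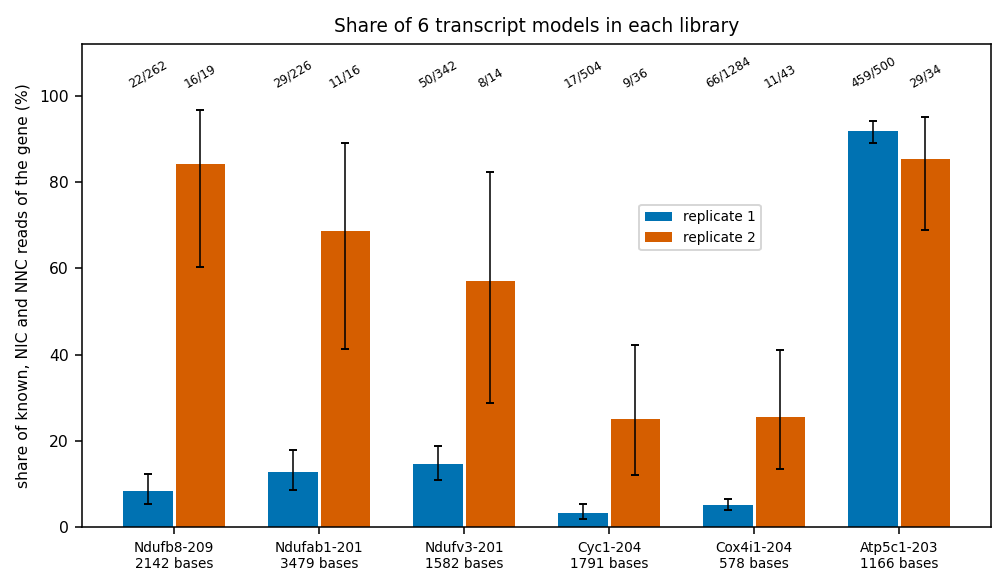
Share of 6 transcript models (percent of the known, NIC and NNC reads of the gene, y axis) in replicate 1 (blue) and replicate 2 (orange), with 95% exact binomial intervals and the reads behind each bar above it. The bars of Ndufb8-209, Ndufab1-201, Ndufv3-201, Cyc1-204 and Cox4i1-204 are higher in replicate 2 with intervals apart, and those of Atp5c1-203 overlap.

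The longer form did not have the larger share in replicate 2 in every gene. Atp5g1-201, of 4715 annotated bases, took 356 of 565 reads in replicate 1 and 2 of 7 in replicate 2, while Atp5g1-202, of 596, took 189 and 5. The last exons of these forms begin at the same base and differ in where they end (4367 and 229 bases). A read is matched by its junctions, so the length of the reads themselves is not shown. Over the 31 members with at least 10 reads of known models in each library, the mean annotated length of those reads was longer in replicate 2 for 16, shorter for 10 and equal for 5. For Ndufb8 it was 803 and 1961 bases and for Ndufab1 1677 and 3037 bases.

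Member reads matched the annotation more often than those of other protein-coding genes. Known models took 90.6% of member reads in replicate 1 and 89.9% in replicate 2, against 75.9% and 75.4% for the other genes, and member transcripts are shorter, with a median of 4 exons against 7. Incomplete matches, which lack part of an annotated transcript, took 6.53% and 4.91% of member reads. In replicate 1, 73.6% of them were on models that span a whole annotated coding part, and in replicate 2 37.6% (31.8 to 43.6). In 3 genes they were the main form: Ndufa13 (499 and 9 such reads on models spanning the coding part), Atp5f1 (410 and 21) and Atp5j (329 and 8). With annotated models only, Ndufa13 and Atp5f1 fell under the minimum of 10 reads and were not tested (88 members tested against 90). Together, known models annotated as coding and incomplete models that span a coding part took 94.3% and 90.6% of member reads. Reads were matched by splice junctions, so whether each read itself holds the whole coding part was not tested.

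Unannotated splice forms were rare and mostly seen once. NIC models numbered 164 in 55 genes, with 115 read once and 14 found in both libraries, and NNC models 302 in 77 genes, with 219 read once and 12 in both. The most used was in Uqcrh, the acidic hinge protein of complex III. A model of 3 exons skips a coding exon of 21 bases (chromosome 4, 116070737 to 116070757) and extends the first exon by 13 bases. The skipped exon is given in capitals between 15 bases of each neighbour, since it holds a run of GAA and GAG triplets in the annotated form Uqcrh-202.
Uqcrh-202: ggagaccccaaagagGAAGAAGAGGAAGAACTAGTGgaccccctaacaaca
The model without it took 44 of 169 reads (26.0%) in replicate 1 and 3 of 9 in replicate 2, against 114 and 6 for Uqcrh-202. In Sdhb, an NNC model that loses 6 coding bases at the start of the exon after the first had 27 reads in replicate 1 and 0 in replicate 2. In Ndufs1, a NIC model with 1 exon more than the annotated 19 was found in both libraries, with 7 and 24 reads.

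Many nuclear genes of the chain are known to carry promoter sites for NRF1, for ETS-family factors such as GABP, for YY1 and for the estrogen-related receptors. RefSeq promoters on GRCm38.p6, 250 bases before to 50 after the start, were matched for 75 of the 93 members (80 promoters). Searched on both strands were the NRF1 motif (10 bases with 1 free position, marked in capitals below), ACTTCCGG and CCGGAAGT for ETS factors, AAGATGGCG for YY1 and TCAAGGTCA for the estrogen-related receptors; no overlap of different motifs was screened out. The NRF1 letters were found for 19 of the 75 genes (25.3%), against 4.60% of all 32851 promoters and 12.5% of the 7474 other protein-coding genes tested here. The YY1 letters were found for 8 (10.7%, against 1.40% of all promoters and 4.13% of the other tested genes). Within the 250 upstream bases alone they were found for 1 member (1.33%), against 1.58% of the other tested genes. The ETS letters were found for 5 (6.67%, 95% interval 2.20 to 14.9), against 3.89% of all promoters and 10.4% of the other tested genes, a share inside that interval. The receptor letters were found for 2 (2.67%, against 0.423% and 0.294%). At least 1 motif was found for 40% of the genes, against 25.1% of the other tested genes. Within the 250 upstream bases alone these shares were 24% and 18.2%.

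Of the 19 genes with NRF1 letters, 14 held them within the 250 bases before the start. Among the 19, Sdha alone was called higher in replicate 2, and Ndufaf4 and Ndufaf5 were not called. The 250 bases before the start of Sdha, higher in replicate 2, and of Ndufb4 and Cox6a1, lower there, are printed because they hold more than 1 match; the choice was made after the matches were seen. Capitals mark the NRF1 letters, and each run ends at the base before the start. All 3 genes lie on the minus strand, Sdha at chr13:74350241-74350490, Ndufb4 at chr16:37654369-37654618 and Cox6a1 at chr5:115348959-115349208.
Sdha: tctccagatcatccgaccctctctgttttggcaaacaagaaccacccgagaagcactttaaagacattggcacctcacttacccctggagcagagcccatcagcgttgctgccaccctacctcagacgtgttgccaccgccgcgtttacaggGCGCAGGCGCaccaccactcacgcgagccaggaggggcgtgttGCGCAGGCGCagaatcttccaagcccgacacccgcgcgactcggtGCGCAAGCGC
Ndufb4: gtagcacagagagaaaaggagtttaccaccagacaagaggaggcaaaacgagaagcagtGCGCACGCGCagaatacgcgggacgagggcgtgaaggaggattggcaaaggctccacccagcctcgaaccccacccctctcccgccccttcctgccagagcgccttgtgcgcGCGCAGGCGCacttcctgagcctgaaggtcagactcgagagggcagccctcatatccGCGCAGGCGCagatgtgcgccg
Cox6a1: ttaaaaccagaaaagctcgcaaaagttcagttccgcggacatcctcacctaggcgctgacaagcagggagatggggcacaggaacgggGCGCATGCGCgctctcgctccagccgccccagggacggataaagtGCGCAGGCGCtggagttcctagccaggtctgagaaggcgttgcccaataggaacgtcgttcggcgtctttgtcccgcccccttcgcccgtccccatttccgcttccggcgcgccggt
The matches begin 98, 55 and 10 bases before the start in Sdha, 191, 79 and 22 in Ndufb4, and 162 and 117 in Cox6a1. Beside these sequences, Sdha had 478 and 2151 CPM, Ndufb4 270 and 12.8 CPM, and Cox6a1 386 and 29.3 CPM. Of the other higher members, Atp5b held none of the motifs in this window, and Ndufs1 and Atp5a1 were not among the genes matched. The lowest member, Ndufb10, held none either.

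Related genes from lists of the same pathway were tested in the same way. The mitochondrial-encoded subunits, with a median transcript of 1091 bases, were lower in 8 of the 8 tested genes (summed 935 and 42.2 CPM). With the length trend of all genes removed 2 were lower, mt-Nd5 of 1824 bases and mt-Co1 of 1545. Of the 13 genes listed, 2 had no read, and how far these counts reflect their RNA levels was not tested. The most read was mt-Co1, at 506 and 14 reads. Of 44 tested assembly factors outside the symbol rule, 27 were lower and 6 higher, with a median log2 ratio of -2.22 and a median transcript of 1476.5 bases. With the length trend removed, 15 were lower and 4 higher. The higher included Acad9, a complex I assembly protein (50 and 108 reads), and Tmem186 (8 and 60), and the lower included Coa3, a factor for complex IV (233 and 2), and Surf1 (110 and 6). The citric acid cycle and pyruvate dehydrogenase, which feed the chain, were mixed: 8 of 17 higher and 7 lower, or 3 and 6 with the length trend removed. Dlst, a 2-oxoglutarate dehydrogenase subunit, had 44 and 414 reads, while Mdh2, malate dehydrogenase, had 476 and 53. Other electron entry enzymes and coenzyme Q synthesis had 6 of 20 higher and 7 lower, or 5 and 3 with the trend removed, with Etfdh at 67 and 137 reads and Etfb at 342 and 12. Among regulators of respiratory genes, 6 of 10 tested were higher and none was lower, with Pprc1 at 8 and 2 reads not called. With the length trend removed 2 of the 10 were higher. Their median transcript was 3954 bases. Nrf1 had 20 and 43 reads and Gabpa 6 and 15. Over all genes, 36.6% were higher and 27.9% lower, or 20.6% and 20.9% with the length trend removed.

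Reads of copies and neighbours were looked up by name and position. Of 12 processed pseudogenes named after members, 2 had any read, Cox6c2 with 1 and 2 and Ndufb4c with 1 and 0. On the opposite strand, 28 members overlap another gene, 17 of them one with at least 10 reads, and on the same strand 5 do. Ndufs1 is among them, overlapping Eef1b2, which had 287 and 22 reads on the other strand, and so is Ndufs6, overlapping Mrpl36 with 131 and 2. How strand was used in counting is not given in the sources used here.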

How the data were processed

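The authors deposited, for each library, raw counts of reads per transcript model on mm10 with GENCODE M21, per the text deposited with each library; models without a read are not listed, and the deposited annotation names TALON as the source of models outside GENCODE. Not given in the sources used here are the aligner and the sequencing platform. Counts were added up by gene and scaled to the library total (848782 and 545229 reads). The members, gene lists and motifs were chosen with earlier results of these data known.

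Genes with at least 10 reads over both libraries were tested with Fisher's exact test (two-sided), Benjamini-Hochberg adjusted over 9879 genes, with 0.05 as the threshold. With 2 libraries of 1 group this compares the libraries only. Log2 ratios added a pseudocount of 1 CPM. Alternatives with edgeR's TMM (4.0.16), DESeq2 size factors (1.42.0, R 4.3.3) and a running median over 301 genes along length used an exact binomial test. Counts of 0 took a floor of 3 counts (3.53 and 5.50 CPM). Intervals are exact (95%; Clopper-Pearson for shares, Poisson for levels). Python 3.11.15, numpy 2.4.6, pandas 2.3.3, scipy 1.17.1 and matplotlib 3.10.9 were used. The tests were also run on simulated counts with counting error as the only noise, which checks the code and not the calls.

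Named were the 3 members of highest mean level in each complex, the 3 highest and 3 lowest called ratios before and after the length trend was removed, all members with tissue forms, those called in isoform use and those at 0 reads in a library; 1 such member is not reported here, and other members stand in ranges or were chosen after their values were seen. Sequences are from GENCODE M21 transcripts and RefSeq promoters (GRCm38.p6).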

Additional observations from a re-analysis of the deposited data

How the results depend on the processing

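The share of member reads ranged from 1.02% to 3.58% when either library was left out, and leaving a library out of the comparison itself leaves nothing to compare. No paired analysis was possible because the series has 1 group. The number of members lower in replicate 2 was 84 and stayed within 80 to 85 under TMM, DESeq2 scaling, known models only or no minimum of reads. Of all genes tested in each setting, 27.9% were lower in the main test and 33.8% under TMM or DESeq2 scaling. On known models 33.7% were lower, and with no minimum of reads 15.9%. With the length trend removed 55 members were lower (20.9% of all genes). Choices added after the values were seen gave 54 lower members along coding length (22.8% of all genes). They gave 29 with the trend of genes with at least 100 reads (19.5%). The latter trend also raised the higher members from 4 to 8 (36.6% and 22.2% of all genes). The median log2 ratio was -3.71 with a pseudocount of 5 CPM, -4.42 with TMM, -4.43 with DESeq2 size factors (these shift every gene alike, TMM by 0.43), -4.28 with known models only, -1.15 with the length trend removed, -1.38 along coding length and -0.55 with the 100-read trend. Members called in isoform use were 2 with 20 reads, 10 with 10 and 0 with 50. Members with any motif went from 40% to 24% with the upstream bases only. Of 34 named members tested, none changed direction under TMM, DESeq2 or known models only, and 5 did with the length trend removed, to 1.04 (Atp5d), 0.57 (Atp5g3), -0.021 (Atp5a1), 0.61 (Ndufaf1) and 0.67 (Ndufa4l2); the cause was not tested. Single reads in replicate 2 limit the lowest levels.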
